A study of Ovis aries with 14 samples.

Results

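The insulin-like growth factor (IGF) system was followed through 7 genes in the hypothalamus of fetal sheep exposed to triclosan, an antibacterial compound used in soaps and toothpaste. The genes were the ligand IGF1, the receptor IGF1R, the binding proteins IGFBP2, IGFBP3, IGFBP5 and IGFBP6, and the protease PAPP-A. Every probe whose gene name, or whose symbol in a RefSeq gene table, was one of these was taken, which gave 11 of the 15008 probes on the array and 7 of its 967 named genes. Of the 11 probes, 6 were matched through a RefSeq transcript, 3 through their symbol and the 2 PAPP-A probes through the name on the array. The test covered 10 of them, since PAPP-A probe A_70_P026221 was not well above background on the 3 arrays that the filter asked for.

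Hypothalamic RNA of fetuses of about 130 days was labelled with Cy3 and hybridised to single-colour Agilent ovine arrays, 14 in all. In the direct arm the catheterised fetus received vehicle (fetal vehicle, n = 4) or 250 µg of triclosan per day (fetal triclosan, n = 4) into a vein for 2 days. In the indirect arm the ewe received vehicle (maternal vehicle, n = 2 independent arrays of 3 deposited) or 100 µg/kg of triclosan per day (maternal triclosan, n = 3) for 2 days, so the 2 doses are on different scales. Maternal vehicle replicate 3 equalled 0.6 times replicate 1 plus 0.4 times replicate 2 at all 15744 spots, and it was left out. The labels give neither the sheep's breed nor the vehicle's make-up, and do not say that replicates were fetuses of different ewes. The p-values therefore measure the spread between these arrays only, and the small number of arrays limits their precision.

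IGF1 and its close relative IGF2 are secreted peptides that promote growth and survival, and in the fetus both act as local and circulating growth factors. They signal through IGF1R, a receptor tyrosine kinase, while the IGF2 and mannose 6-phosphate receptor takes IGF2 up for breakdown. Most IGF outside cells is held by IGF binding proteins, and proteases such as PAPP-A, which cuts IGFBP4 and IGFBP5, release it again.

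The probes for the receptor and the protease are shown because the results of the direct arm turn on them. The scanner files hold 60-base probes, and those for IGF1R, for the transcripts named IGFR1 and LOC780503, and for PAPP-A lie in partial coding sequences by the descriptions in those files.
IGF1R A_70_P041041: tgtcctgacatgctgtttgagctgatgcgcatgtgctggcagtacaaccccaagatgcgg
IGFR1 A_70_P026721: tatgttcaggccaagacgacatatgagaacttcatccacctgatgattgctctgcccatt
LOC780503 A_70_P008176: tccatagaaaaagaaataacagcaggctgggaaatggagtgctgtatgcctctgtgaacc
PAPP-A A_70_P026222: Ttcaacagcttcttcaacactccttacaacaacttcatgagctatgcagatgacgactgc
PAPP-A A_70_P026221: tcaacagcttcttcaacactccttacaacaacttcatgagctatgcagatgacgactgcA

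The capital letter in each PAPP-A probe marks the base that its partner lacks. These probes share 59 of their 60 bases, and so do the probe pairs of IGFBP2, IGFBP5 and IGFBP6, so the 2 probes of a pair are close to a repeat measurement and not separate evidence. The 3 probes described as type 1 IGF receptor share no such stretch. IGFR1 and LOC780503 are outside the 7 genes, because the gene table did not match them to IGF1R, and they were picked for their descriptions after the names on the array were seen.

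Values are the log2 of the processed signal minus the log2 of the 75th percentile of the same array, so 0 stands for that percentile, and they are compared only within a probe. A difference is triclosan minus vehicle in limma's moderated test (two-sided), given with its standard error (SE), its 95% interval and a p-value adjusted over all 13738 tested probes by the Benjamini-Hochberg method. In the direct arm 18.3% of all tested probes passed an adjusted p of 0.05, with 6.67% higher and 11.6% lower, whereas in the indirect arm 0% passed. The median processed signal was 315.4 to 380.0 on the fetal vehicle arrays and 236.1 to 307.4 on the fetal triclosan arrays, where replicate 4 had the lowest value and replicate 2 the next (263.0). The maternal vehicle arrays had 353.9 and 350.9 and the maternal triclosan arrays 284.3 to 375.8. On each array 83.3% to 90.1% of spots were well above background, with 0 saturated. Of 19 hypothalamic neuron markers 10 were measured, and each was well above background on at least 1 array. In bulk RNA, fewer cells of a type and less RNA per cell cannot be told apart.

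With triclosan infused into the fetus, the type 1 IGF receptor gave lower values at all 3 of its probes, and the 2 probes outside the rule passed the test. PAPP-A also passed as lower, from signals near the array's background, while IGF1 and the 4 binding proteins did not pass in either direction. The PAPP-A probe entered the test only through fetal vehicle arrays, the group where it was high, so its call is not separate from the filter. Of the 10 tested IGF probes 1 was called (PAPP-A), beside 18.3% of all probes, which is near that background, and 2 had an unadjusted p under 0.05 (IGF1R and PAPP-A) beside 33.3%. Their median difference was −0.14 on the log2 scale against −0.09 for all tested probes. By group, 5 of the 10 values lay above 0 and 5 below, and 0 of 10 had groups that did not overlap, beside 12.6% of all probes that did not overlap and were lower and 9.03% that were higher.

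IGF1R, the receptor through which both IGFs signal, had log2 levels of −2.79, −2.74, −2.91 and −3.12 on fetal vehicle replicates 1 to 4 and of −2.75, −3.56, −3.20 and −3.86 on fetal triclosan replicates 1 to 4. Triclosan replicates 2, 3 and 4 lay below every vehicle array, but replicate 1 lay among the vehicle arrays, so the groups overlapped. The difference was −0.45 (SE 0.20, 95% interval −0.89 to −0.01, unadjusted p = 0.0468 and adjusted p = 0.144 in limma's test), and it did not pass. Without fetal triclosan replicate 1 it was −0.65 and passed (adjusted p = 0.0299).

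IGFR1, which the array describes as a type 1 IGF receptor, had log2 levels of −2.37, −2.26, −2.49 and −2.52 with fetal vehicle and of −2.97, −3.50, −2.86 and −3.63 with fetal triclosan. All 4 triclosan arrays lay below all 4 vehicle arrays. The transcript fell by 0.83 (SE 0.17, 95% interval −1.21 to −0.45), 1.78-fold lower, with an adjusted p of 0.0094 in limma's test. It passed in 11 of 12 processing alternatives and in all 13 fits without 1 array, and with the authors' deposited values it was −0.46 (adjusted p = 0.0501).

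LOC780503, described as an IGF-I receptor, had log2 levels of −4.78, −4.74, −4.71 and −4.62 with fetal vehicle and of −5.04, −5.93, −4.92 and −5.73 with fetal triclosan. Again the groups did not overlap. It fell by 0.69 (SE 0.20, 95% interval −1.13 to −0.25; adjusted p = 0.0355 in limma's test), 1.61-fold lower, but it passed in only 5 of 12 processing alternatives and 4 of 13 fits without 1 array, and with normexp background correction the difference was −0.18 (adjusted p = 0.553).

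At all 3 type 1 receptor probes, fetal triclosan replicates 2 and 4 were the lowest arrays, and these were also the arrays of that group with the lowest median signal. Whether signal strength had a part in the lower values was not tested. The values are also set against a trend over brightness, since the median difference in the direct arm was −0.28 for probes of IGF1R's brightness decile, −0.21 for that of IGFR1 and −0.27 for that of LOC780503. Within slides 1, 2 and 3 the difference of IGFR1 was −0.60, −1.24 and −0.35, and that of LOC780503 was −0.26, −1.19 and −0.25, all below 0. That of IGF1R was 0.04, −0.82 and −0.18, so it was not below 0 on slide 1. Fetal triclosan replicate 4 lay alone on slide 5, and with the slide as a block IGFR1 was at −0.70 (adjusted p = 0.0186 in limma's test).

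Of the endothelial and pericyte marker genes, 5 of 9 were measured, of which 3 fell (KDR, CD93 and FLT1) and 0 rose in the direct arm, against 9.4% and 5.86% of the named genes tested. The other two, PECAM1 and TIE1, had differences of −0.26 and 0.06. The mean log2 level of that list was −3.39 to −2.97 on the fetal vehicle arrays, −4.56 to −4.09 on the fetal triclosan arrays, while the maternal groups had −3.24 to −3.18 (vehicle) and −3.41 to −3.20 (triclosan). Of the 4 measured astrocyte and tanycyte markers (of 7) 1 fell (FGFR3), with means of 1.87 to 2.01 with fetal vehicle and 0.92 to 1.87 with fetal triclosan. GFAP had −0.63, AQP4 0.13 and VIM 0.26, none of which passed. Of the 2 measured microglia markers (of 5) 1 fell (ITGAM, by 0.95), with means of −2.84 to −2.26 and −3.04 to −2.63. The other, FCER1G, went the other way without passing (0.46, SE 0.17, adjusted p = 0.0753 in limma's test). Of the 3 measured blood cell markers (of 5) 1 rose (AHSP, by 0.94), with means of −2.75 to −2.37 with fetal vehicle and −2.05 to −0.89 with fetal triclosan. Of the 5 measured meningeal and connective tissue markers (of 9) 1 rose (PTGDS, by 0.55), with overlapping means of −1.04 to −0.42 and −0.96 to −0.53. DCN and BGN had 0.30 and 0.02, and COL1A2 and COL3A1 had −0.42 and −0.72, none of which passed. With the probe of lowest p taken for each gene in place of the brightest, 1 gene rose and 1 fell. The hypothalamic neuron markers had a median difference of 0.98 with 0 of 10 called, and means of −2.57 to −1.08 and −2.52 to −0.35. Choroid plexus markers had a median of 1.00 (2 of 5 measured) and pituitary markers of −0.09 (5 of 8 measured), with 0 called. The part of these lists in the receptor values was not tested.

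The receptor that clears IGF2 gave lower values as well. It is measured by 2 probes named IGF-IIR, which share 59 of 60 bases and were also picked from the array's descriptions. Probe A_70_P041802 had log2 levels of −2.26, −2.60, −2.47 and −2.71 with fetal vehicle and of −3.63, −3.62, −3.34 and −3.94 with fetal triclosan. The triclosan arrays formed a group of their own, all lower than every vehicle array. IGF-IIR fell by 1.12 at this probe (SE 0.17, 95% interval −1.48 to −0.75; adjusted p = 0.00322 in limma's test), 2.17-fold lower, with −1.36, −1.02 and −0.74 within slides 1, 2 and 3, and it passed in all 12 processing alternatives and all 13 fits without 1 array. Its partner A_70_P041801 fell by 0.80 (SE 0.19, adjusted p = 0.0176), with a call lost under the authors' deposited values (−0.44, adjusted p = 0.0529) and without fetal vehicle replicate 3 (adjusted p = 0.0605). A further probe named M6P/IGF2R was well above background on 2 of 4 arrays in each fetal group and did not pass (−0.28, SE 0.60, adjusted p = 0.781).

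**Figure D1:**
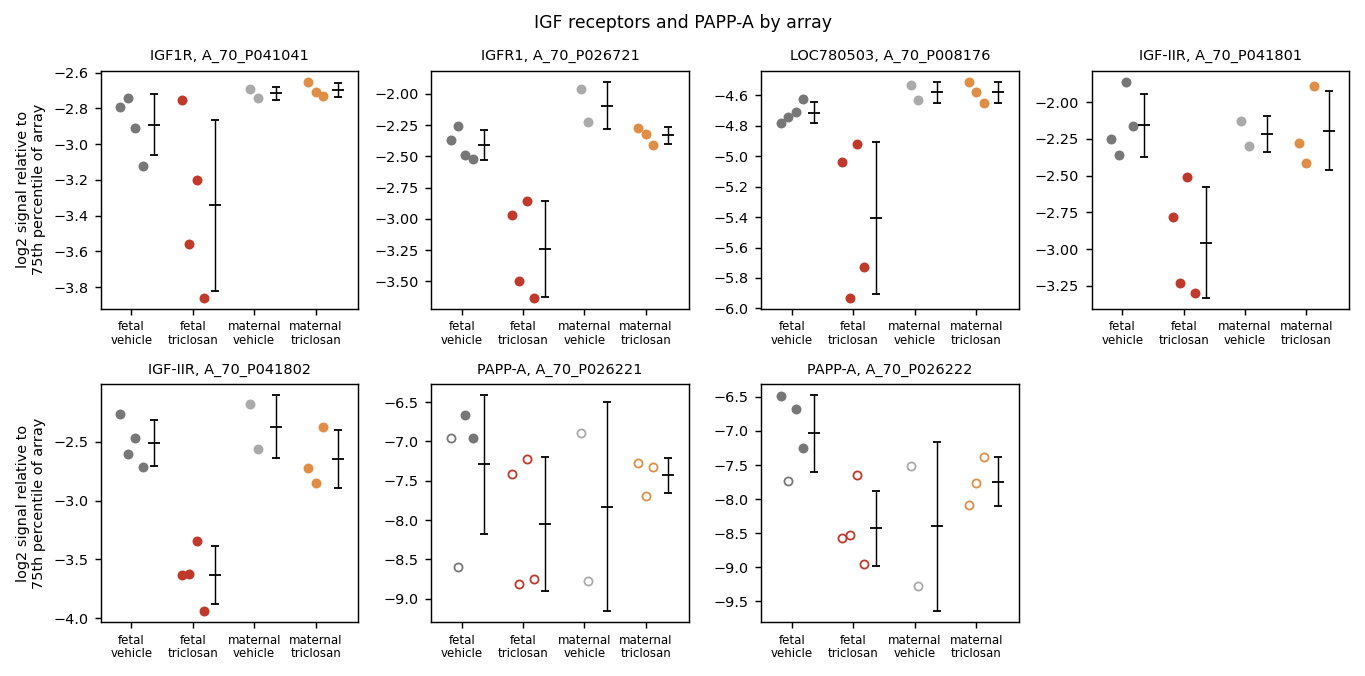
Log2 signal relative to the 75th percentile of the array (vertical axis) in the 4 groups (horizontal axis), 1 panel per probe. Points are single arrays, filled where well above background, and bars are the mean with its SD; fetal triclosan lies below fetal vehicle without overlap for IGFR1, LOC780503 and both IGF-IIR probes, and every fetal triclosan point of PAPP-A is open.

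PAPP-A, the metalloprotease that frees IGF from IGFBP4 and IGFBP5, was measured close to the limit of the array. Probe A_70_P026222 had processed signals of 20.7, 7.63, 18.5 and 12.6 on fetal vehicle replicates 1 to 4 and of 4.28, 4.46, 8.2 and 2.84 on fetal triclosan replicates 1 to 4. It was well above background on 3 of 4 fetal vehicle arrays (replicates 1, 3 and 4) and on 0 of 4 fetal triclosan, 0 of 2 maternal vehicle and 0 of 3 maternal triclosan arrays. The filter of 3 arrays was thus met through fetal vehicle alone, a group of the contrast that was then tested. On the log2 scale the levels were −6.49, −7.73, −6.68 and −7.25 with fetal vehicle and −8.57, −8.53, −7.65 and −8.95 with fetal triclosan, and the groups overlapped by fetal vehicle replicate 2 and fetal triclosan replicate 3.

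The fitted difference of PAPP-A was −1.39 (SE 0.41, 95% interval −2.28 to −0.49, adjusted p = 0.0363 in limma's test). Because no fetal triclosan array was well above background, this is not a measured fold. If the fetal triclosan values are set to the faintest signal still well above background on the same array, where they are lower, their mean is −6.98, above the fetal vehicle mean of −7.04, so no lower bound of the fold can be given. The call was lost under 5 of the 11 processing alternatives in which the probe was tested and in 6 of 13 fits without 1 array, and the difference was −0.24 with the authors' deposited values and 0.04 with normexp correction. The partner probe A_70_P026221 was well above background on fetal vehicle replicates 3 and 4 only, with log2 means of −7.29 ± 0.88 (SD, n = 4) with fetal vehicle and −8.05 ± 0.85 (SD, n = 4) with fetal triclosan, and it was not tested.

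**Figure D2:**
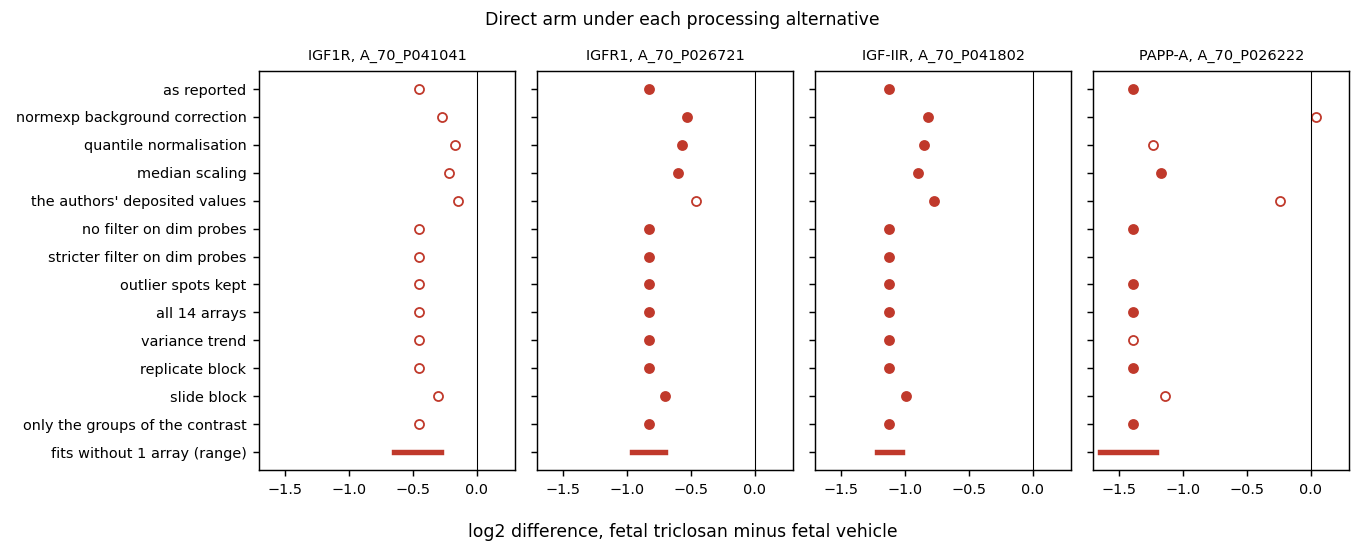
Log2 difference between fetal triclosan and fetal vehicle (horizontal axis) for 4 probes under each processing alternative (rows). Filled points passed an adjusted p of 0.05, a missing point means that the probe was not tested, and the bar is the range over 13 fits without 1 array; IGF-IIR stays between −1.22 and −0.77, whereas PAPP-A runs from −1.65 to 0.04.

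IGF1 was not called between the fetal groups. Its log2 levels were −4.52, −5.08, −4.66 and −4.93 with fetal vehicle and −5.20, −4.95, −4.34 and −4.62 with fetal triclosan, so the triclosan arrays spanned the vehicle arrays. The difference was 0.02 (SE 0.19, 95% interval −0.39 to 0.43, adjusted p = 0.96 in limma's test), and changes of over 0.43 in either direction lie outside that interval. IGF2, the ligand of both receptors and not among the 7 genes, had differences of 0.06 (SE 0.51) and −0.16 (SE 0.46) at its 2 probes.

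All probes of IGFBP2, IGFBP3, IGFBP5 and IGFBP6 were well above background on all 13 arrays. IGFBP2, a binding protein of the fetal brain and the circulation, had a mean log2 level of 2.93 ± 0.24 (SD, n = 4) with fetal vehicle and 3.02 ± 0.36 with fetal triclosan at probe A_70_P050966. Its difference was 0.09 at that probe (95% interval −0.34 to 0.51) and 0.13 at the other (95% interval −0.25 to 0.52). IGFBP6, which prefers IGF2, had differences of 0.23 at both probes (SE 0.16 and 0.17), with groups that overlapped.

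IGFBP3, the main carrier of IGF in blood, had log2 levels of −4.42, −4.84, −4.60 and −4.62 with fetal vehicle and of −4.39, −5.55, −4.64 and −5.06 with fetal triclosan. Replicates 2 and 4 of fetal triclosan were again the lowest arrays, and the difference of −0.29 (SE 0.23, adjusted p = 0.417 in limma's test) did not pass. IGFBP5, a substrate of PAPP-A, had log2 levels of −2.99, −2.86, −3.01 and −3.42 with fetal vehicle and of −3.66, −2.87, −2.85 and −4.30 with fetal triclosan at probe A_70_P041811. Triclosan replicates 2 and 3 lay beside the vehicle arrays, and replicates 1 and 4 lay below all of them. The differences were −0.35 (SE 0.32) and −0.52 (SE 0.37) at its 2 probes, neither of which passed (adjusted p = 0.477 and 0.359 in limma's test).

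**Figure D3:**
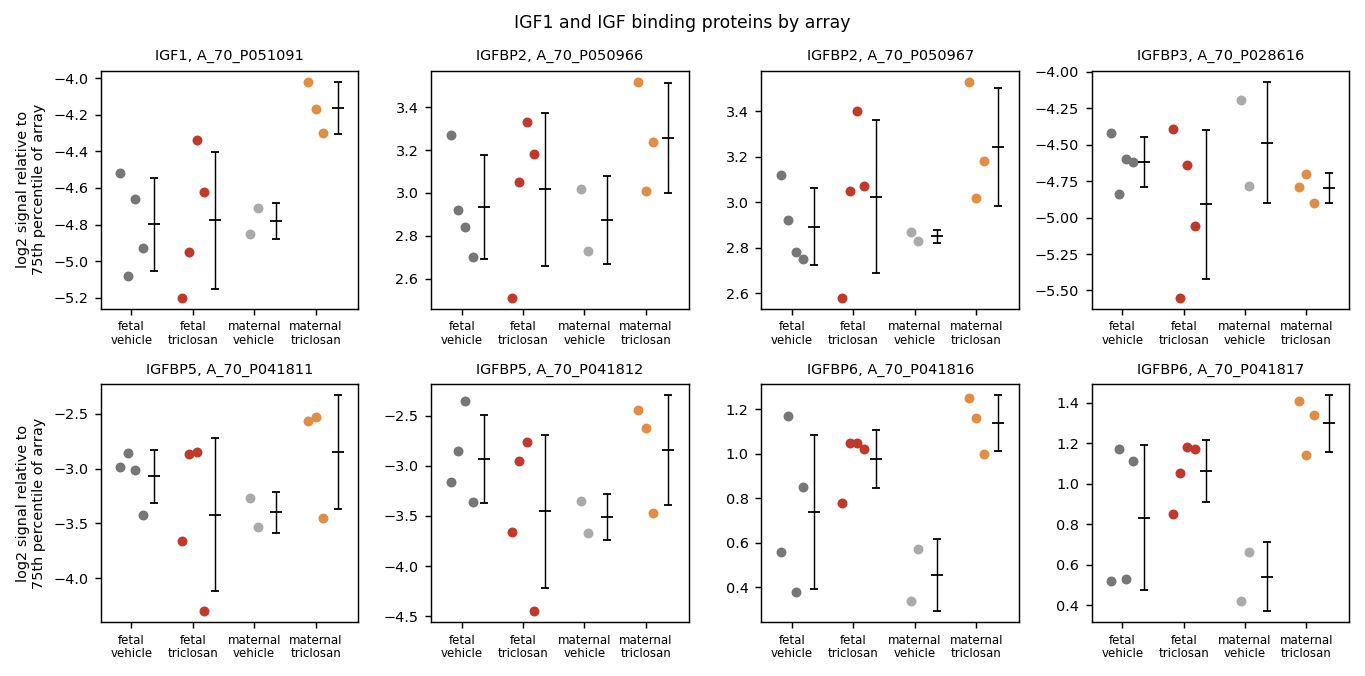
Log2 signal relative to the 75th percentile of the array (vertical axis) for IGF1 and the binding proteins in the 4 groups (horizontal axis). Points are arrays, all well above background, and bars are the mean with its SD; the maternal triclosan arrays lie above both maternal vehicle arrays for IGF1, IGFBP6 and 1 probe of IGFBP2.

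The split of calls in the direct arm moved with the scaling between arrays. Median scaling gave 2159 higher and 926 lower calls where the 75th percentile gave 917 and 1595, with the median of all probes at 0.13 and −0.09. Both scalings subtract 1 value per array, so differences relative to the median of all probes are the same under both by construction. They were −0.74 for IGFR1, −1.03 for IGF-IIR at A_70_P041802, −0.36 for IGF1R and −1.30 for PAPP-A. The median of the 10 IGF probes was −0.04 relative to all probes.

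Other genes of the pathway came from a list of 62, of which 13 were measured under their symbol, each through its probe with the highest mean. In the direct arm 0 of the 13 rose and 1 fell, against 5.86% and 9.4% of the 904 named genes tested, and the median of the list was −0.30. The gene that fell was STAT5A, a transcription factor activated below the growth hormone receptor. Its log2 levels at probe A_70_P039386 were −3.43, −3.60, −3.55 and −3.25 with fetal vehicle and −4.55, −4.55, −4.12 and −4.52 with fetal triclosan, with no overlap. Of all tested probes, 12.6% were lower without overlap in this arm. STAT5A fell by 0.97 (SE 0.16, adjusted p = 0.0039 in limma's test), with a call in all 25 other fits at this probe. At its other probe, A_70_P039387, it fell by 1.06 (SE 0.22, adjusted p = 0.00956 in limma's test). There 24 of 25 other fits gave a call, which was lost with normexp correction (−0.51, adjusted p = 0.0601).

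By role, the growth hormone receptor GHR had a difference of −0.42 and the receptor for growth hormone-releasing hormone, GHRHR, of 0.50 (well above background on 11 of 13 arrays). IGFBP4, the classic substrate of PAPP-A, had 0.03 and 0.08 at its 2 probes, and IGFBP1, a binding protein of the liver, had −0.46 at A_70_P069081, its probe that was well above background on all 13 arrays. Its other probes were so on 4 and 3 of 13 arrays, and no fold is given for them. The proteases CTSD, MMP2 and MMP9 had −0.37, −0.45 and −0.63, and the protease inhibitors TIMP1 and TIMP2 had 0.38 and −0.06. Below the receptor, the kinase AKT1 had −0.30 and the ribosomal protein RPS6, a target of the pathway's kinases, had 0.28. None of these 11 genes passed, and MMP2 had the lowest adjusted p among them (0.0707 in limma's test).

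In the indirect arm the values of the ligand and most binding proteins were higher with triclosan, but none passed the adjusted test. The type 1 receptor and IGF-IIR probes had differences between −0.27 and 0.02, and none of these passed either. Of the 10 IGF probes 0 were called, as were 0 of all 13738 probes (0%), and 3 had an unadjusted p under 0.05 against 9.59% of all probes. The lowest adjusted p was 0.424 among the IGF probes and 0.199 over all probes, in limma's test. The median difference of the IGF probes was 0.59 on the log2 scale against 0.00 for all probes, with 9 of 10 above 0. Of the 10, 4 had maternal triclosan arrays that were all above maternal vehicle and 0 had them all below, beside 19.3% and 19.6% of all probes. These 10 probes stand for 7 genes, since IGFBP2, IGFBP5 and IGFBP6 each count at both probes of a near-identical pair. IGFBP6 enters the counts of 3 and 4 at both probes, and PAPP-A had no array of this arm well above background.

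IGFBP6 gave the clearest separation. At probe A_70_P041817 the log2 levels were 0.42 and 0.66 with maternal vehicle and 1.41, 1.14 and 1.34 with maternal triclosan, and at A_70_P041816 they were 0.34 and 0.57 against 1.25, 1.16 and 1.00. All 3 triclosan arrays were above both vehicle arrays at either probe. The differences were 0.76 (SE 0.22, 95% interval 0.28 to 1.24, unadjusted p = 0.0052, adjusted p = 0.424 in limma's test) and 0.68 (SE 0.21, unadjusted p = 0.00785, adjusted p = 0.437). Over the processing alternatives the difference at A_70_P041817 stayed between 0.71 and 0.79, and within slides 1 and 2 it was 0.98 and 0.49.

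IGF1 had log2 levels of −4.85 and −4.71 with maternal vehicle and of −4.02, −4.17 and −4.30 with maternal triclosan. The groups did not overlap, and the difference was 0.62 (SE 0.24, 95% interval 0.09 to 1.15, unadjusted p = 0.0263, adjusted p = 0.473 in limma's test). With normexp background correction it was 0.00, and with the authors' deposited values 0.45. IGF2, which lies outside the 7 genes, had log2 levels of −0.24 and 1.35 against 1.78, 1.51 and 3.06 at probe A_70_P029956, a difference of 1.56 (SE 0.66, adjusted p = 0.502), with the 2 vehicle arrays as far apart as the groups.

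IGFBP2 had differences of 0.38 (95% interval −0.17 to 0.93) and 0.39 (95% interval −0.10 to 0.89), and only at the second probe did the groups not overlap. IGFBP5 had 0.55 and 0.67, with maternal triclosan replicate 3 at the level of the vehicle arrays and the other two above them. IGFBP3 had −0.31 (SE 0.30), the 1 IGF probe below 0. IGFBP4, outside the 7 genes, had 0.36 and 0.32 without overlap (adjusted p = 0.524 and 0.556 in limma's test).

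For the receptors, IGF1R had log2 levels of −2.69 and −2.74 with maternal vehicle and of −2.65, −2.71 and −2.73 with maternal triclosan. The 5 arrays lay within a narrow band, and the difference was 0.02 (SE 0.26, 95% interval −0.55 to 0.59). IGFR1 had −0.23 (95% interval −0.72 to 0.25). Its log2 levels of −2.27, −2.32 and −2.41 with maternal triclosan lay below those with maternal vehicle, −1.96 and −2.23. The groups thus did not overlap, as for 19.6% of all probes that were lower. LOC780503 had 0.00 as rounded (95% interval −0.57 to 0.57), and IGF-IIR had 0.02 and −0.27. PAPP-A had 0.66 at the tested probe (SE 0.53), with 0 of 5 arrays well above background, so no fold is given. None of the 13 other measured pathway genes passed in this arm, and their median was 0.10. The hypothalamic neuron markers had a median difference of 1.05 (0 of 10 called), with mean log2 levels of −2.28 to −1.90 on the maternal vehicle arrays and −0.89 to −0.61 on the maternal triclosan arrays. Of the 5 blood cell markers 3 were measured, with a median of 1.44 (HBB 1.80, AHSP 1.44, CA1 0.34; 0 called) and means of −3.68 to −2.73 with vehicle and −2.25 to −1.88 with triclosan. Of the 8 pituitary markers 5 were measured, with a median of 1.14 and 0 called, means of −4.36 to −3.09 against −3.78 to −2.05, and PRL in the other direction (−1.57, SE 0.48). The other measured lists had medians near or below 0, with 0 called. These were −0.68 for choroid plexus, −0.50 for microglia and −0.19 for endothelium and pericytes. Astrocytes and tanycytes had −0.13, and meninges and connective tissue 0.03. The part of these lists in the higher IGF values was not tested.

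**Figure D4:**
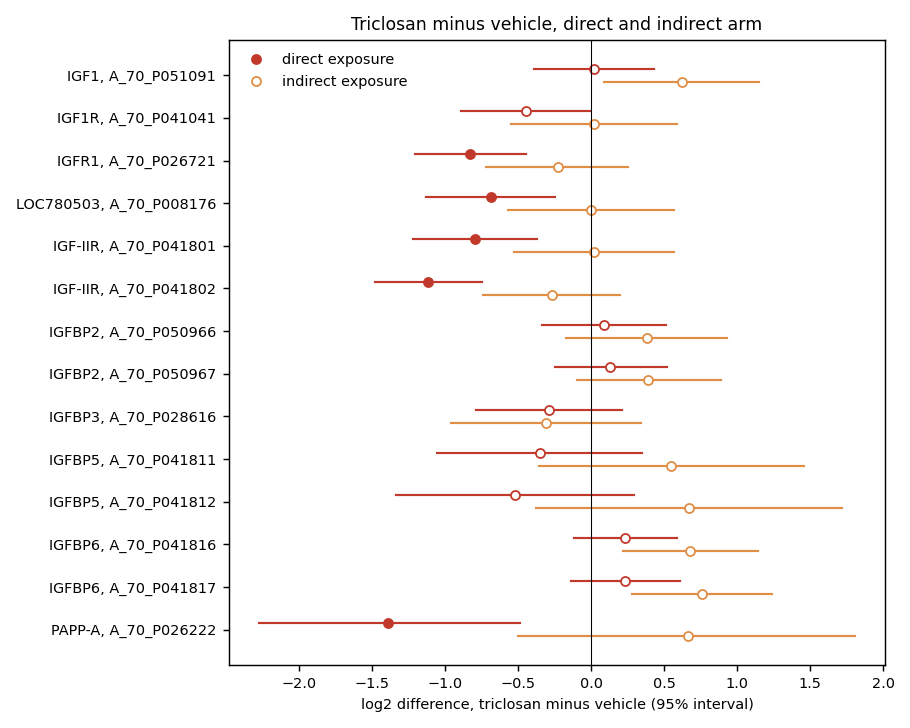
Log2 difference, triclosan minus vehicle, with its 95% interval (horizontal axis) for each tested IGF probe and for the receptor probes named IGFR1, LOC780503 and IGF-IIR (vertical axis), in the direct and the indirect arm. Filled points passed an adjusted p of 0.05; the receptor values lie below 0 in the direct arm, from −1.12 to −0.45, and between −0.27 and 0.02 in the indirect arm.

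Whether the 2 arms differed was tested as an interaction, indirect minus direct. Of the 10 IGF probes 0 passed, as did 0% of all probes, and 1 had an unadjusted p under 0.05 against 14.7% of all probes. That was PAPP-A, at 2.05 (SE 0.67, unadjusted p = 0.0102, adjusted p = 0.26 in limma's test), a value that rests on arrays not well above background. IGF1R had 0.47 (SE 0.33), IGFR1 0.59 (SE 0.28, adjusted p = 0.35) and IGF-IIR 0.82 and 0.84 (adjusted p = 0.298 and 0.257). Both IGF-IIR probes, outside the 10, had an unadjusted p under 0.05 (0.0253 and 0.00943 in limma's test). The median of this contrast was 0.31 for probes of IGF1R's brightness decile and 0.21 for that of IGFR1 and IGF-IIR. IGF1 had 0.60 (SE 0.31) and IGFBP5 0.91 and 1.19 (SE 0.53 and 0.61). The lower receptor values of the direct arm were thus not shown to differ from those of the indirect arm.

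The vehicle groups of the 2 arms gave the background between experiments. Of the 10 IGF probes 0 passed between maternal and fetal vehicle, as did 0% of all probes, and 1 had an unadjusted p under 0.05 beside 3.33%. That was PAPP-A (unadjusted p = 0.019, adjusted p = 0.999 in limma's test), with log2 means of −7.04 with fetal and −8.40 with maternal vehicle. Since 0 of 2 maternal vehicle arrays were well above background there, and fetal vehicle replicate 2 was not either, no fold or bound is given. Over the processing alternatives the difference, maternal minus fetal vehicle, ran from −1.40 to 0.57. The other 9 differences lay between −0.58 (IGFBP5) and 0.18 (IGF1R), and IGF1R was the 1 of 10 whose groups did not overlap. Of all probes, 10.1% were without overlap and higher with maternal vehicle, and 7.02% were without overlap and lower. Outside the 10, IGFR1 was also higher with maternal vehicle without overlap (0.31, SE 0.21), a difference that enters its value between the arms.

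Over the 4 groups, the order of the mean levels differed by gene. IGF1R, IGFR1, LOC780503 and both IGF-IIR probes were lowest with fetal triclosan. PAPP-A gives no such order, since 3 of its 4 groups had 0 arrays well above background at either probe. IGF1, both IGFBP2 probes, both IGFBP5 probes and both IGFBP6 probes were highest with maternal triclosan. For IGF1R the order was fetal triclosan (−3.34 ± 0.48), fetal vehicle (−2.89 ± 0.17), maternal vehicle (−2.71 ± 0.03) and maternal triclosan (−2.70 ± 0.05), as mean log2 level and SD, and all neighbours in this order overlapped except fetal and maternal vehicle. For IGF1 the first 3 groups, from −4.80 to −4.78, overlapped, and maternal triclosan stood at −4.16 ± 0.14.

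Across the 13 arrays, which share their groups and scaling, the named genes most like each member were listed by Pearson's r over 882 candidates, as a description. IGF1R was most like IGFR1 (r = 0.89, or 0.56 without the 2 arrays farthest from the median), and r between IGFR1 and LOC780503 was 0.94. IGFBP3 was most like the tetraspanin CD81 and the placental growth factor PLGF (both 0.90). IGF1 was most like the calpain inhibitor CAST (0.83) and IGFBP4 (0.81), and r between IGF1 and IGFBP2 was 0.76 and 0.79 at the IGFBP2 probes. IGFBP2 was most like IGFBP4 (0.72), IGFBP5 like BEGAIN (0.80), IGFBP6 like LCK (0.78) and the blood cell marker HBB (0.76), and PAPP-A like CHRD, a secreted inhibitor of bone morphogenetic proteins (0.88), with PAPP-A well above background on 3 of the 13 arrays.

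The probe pairs that share 59 bases moved together at r = 0.96 for IGFBP2, 0.93 for IGFBP5, 0.94 for IGFBP6 and 0.90 for IGF-IIR, and at 0.78 for PAPP-A, which was well above background on 2 and 3 of 13 arrays. IGFBP2 and IGFBP5 are direct neighbours on their chromosome in the sheep assembly ARS-UI_Ramb_v3.0, with 0 annotated genes between them. Their r over the arrays was between 0.26 and 0.42.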

How the data were processed

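Hypothalamic RNA of 14 fetal sheep samples was measured on single-colour Agilent arrays. Agilent Feature Extraction 10.1.1.1 made the intensity values, per the file headers, subtracting background and detrending inside an array but with no scaling across arrays. The authors also deposited a table of 13899 probes on what looks like a log2 scale, with no account of its scaling found here. The submitters' processing notes name limma, without saying what for. Flags for spots well above background, outliers and saturation are other columns deposited in those files.

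The log2 processed signal minus the 75th percentile of each array was used, without control and outlier spots, and spots of a probe were averaged. Probes had to be well above background on at least 3 arrays. limma 3.58.1 (R 4.3.3) was fitted to 13 arrays in 4 groups (degrees of freedom: 9 residual, 2.39 prior; 250 missing values), adjusted by the Benjamini-Hochberg method at 0.05, and tested on simulated data. Python 3.11.15, pandas 2.3.3, numpy 2.4.6, scipy 1.17.1 and matplotlib 3.10.9 made the tables and plots.

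Maternal vehicle replicate 3 was left out as a mixture (signals equal within 1e-05 at 15744 spots). Alternatives were normexp (offset 50), quantile and median scaling, the authors' values, other filters, outlier spots kept, all 14 arrays, a variance trend, replicate and slide blocks, only the groups compared, and leaving out each array. Slides were read from the headers. Same-numbered fetal arrays deviated together by 0.13, 0.12, 0.27 and −0.17 for replicates 1 to 4. Replicates 1 to 3 share slides 1 to 3, but replicate 4 lay on slide 3 with vehicle and slide 5 with triclosan, so its value does not bear on the slide. Fetal triclosan replicate 3 and fetal vehicle replicate 4, both on slide 3, had 0.14. Every fetal triclosan and vehicle pair on a shared slide was thus above 0, whereas pairs on different slides ran from −0.23 to 0.18. The labels state no pairing, and the main fit had no block. The slide was a block only among the alternatives, where PAPP-A and LOC780503 lost their calls.

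All probes of the 7 genes are named, with the pathway list by role. The members and lists were chosen with earlier results of these data known. The gene table (ARS-UI_Ramb_v3.0) gave names and neighbours only; 13352 probes stayed unnamed, and no genome was used.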

Additional observations from a re-analysis of the deposited data

Results flagged for a closer look

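In 46 groups of 4 arrays, 3 had 1 array set apart from the others by a gap that took up most of the group's range, and chance gives about 1 in 20. IGFBP6 at A_70_P041816 had a log2 level of 0.78 on fetal triclosan replicate 1, against 1.02 to 1.05 on the other arrays of that group. PAPP-A at A_70_P026221 had −8.60 on fetal vehicle replicate 2, against −6.96 to −6.66, and this array was not well above background. IGFBP1 at A_70_P016366 had −8.65 on fetal vehicle replicate 1, against −6.82 to −6.75, also not well above background.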

How the results depend on the processing

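Over all alternatives, 0 IGF probes were called in the indirect arm, in the difference between the arms or between the vehicle groups. In the direct arm 1 IGF probe was called as reported and 0 under normexp correction, quantile normalisation, the authors' values, the stricter filter (where PAPP-A A_70_P026222 was not tested), the variance trend and the slide block. PAPP-A reversed to 0.04 with normexp correction (adjusted p = 0.931), and the cause was not tested. Without 1 array 0 to 1 IGF probes were called, with 0 without fetal vehicle replicate 1, 3 or 4 or fetal triclosan replicate 2 or 4; without fetal triclosan replicate 1 the call was IGF1R in place of PAPP-A. Over all probes, the direct count of 2512 was 1589 with quantile normalisation and 1286 with only the fetal groups, and 1222 to 2954 without 1 array, falling to 1634 without fetal vehicle replicate 1 and 1222 without fetal vehicle replicate 3. The indirect count of 0 was 11 with all 14 arrays, in which the mixture narrows the vehicle spread, and 0 to 2 without 1 array. The count for the difference between the arms was 0, with 1 under quantile normalisation, 7 with all 14 arrays and 0 to 48 without 1 array (48 without fetal triclosan replicate 3). The vehicle count of 0 was 0 to 2 without 1 array. LOC780503 lost its call with normexp (−0.18), quantile (−0.43) and median scaling (−0.47), the authors' values (−0.32), the variance trend, the slide block (−0.55) and only the fetal groups. With the replicate number as a block, 2818 probes were called in the direct arm, 1 of them an IGF probe (PAPP-A, adjusted p = 0.0222), and it changed no other IGF call. Dim signals limit PAPP-A, and 2 maternal vehicle arrays limit the indirect arm.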

Other observations

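The mannose 6-phosphate and IGF2 receptor is represented by probes that did not give the same reading. The IGF-IIR pair was well above background on all 13 arrays, whereas M6P/IGF2R was so on 2 of 4 arrays in each fetal group, 1 of 2 with maternal vehicle and 2 of 3 with maternal triclosan. IGFBP1, a liver product of fasting and stress, gave unlike readings at probes that share 59 of 60 bases. Maternal triclosan replicate 2 had a log2 level of −4.00 at A_70_P016367, where the other two arrays of the group had −8.68 and −8.38, and of −7.03 at A_70_P016366, and r between these probes was 0.15 over 13 arrays.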
